A study of Homo sapiens with 6 samples.

Results

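Transcripts of 10 genes of cellular iron uptake, storage and regulation, of 58735 genes in the deposited table, were followed in 6 RNA sequencing libraries. The genes are TFRC, STEAP3 and SLC11A2 for uptake, FTH1, FTL and NCOA4 for storage and release, SLC40A1 for export, HMOX1 for recycling from heme, and ACO1 and IREB2 for sensing. They were found by name in the table, and the set was chosen by its members' role in iron handling with results of the inhibitor-against-DMSO contrast already known. Their values in that contrast are therefore a description, given with their spread and without p-values, and support nothing beyond themselves. Every library carries the label BxPC-3, the name of an established human line from a pancreatic adenocarcinoma, grown in RPMI-1640 with fetal bovine serum. In 3 libraries the cells had received DMSO, the solvent, and in 3 they had received GSK3326595, a small-molecule inhibitor of PRMT5, which places symmetric dimethyl marks on arginine. No engineered allele is named for either group, and neither dose nor duration was stated in the labels. A knockdown is mentioned in the design text, whereas the library labels name the inhibitor and were followed. The series concerns PRMT5 in pancreatic cancer cells, and the comparison asks how transcripts differ when the enzyme is inhibited.

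Most cells take up iron bound to transferrin. The transferrin receptor TFRC carries it into endosomes, where STEAP3 reduces it and SLC11A2 (the transporter DMT1) moves it into the cytosol. Iron that is not used is kept in ferritin, a shell of heavy (FTH1) and light (FTL) chains, and is released when NCOA4 delivers ferritin to the lysosome. SLC40A1 (ferroportin) exports iron, and HMOX1 (heme oxygenase 1) frees it from heme. The iron regulatory proteins ACO1 (IRP1) and IREB2 (IRP2) bind a hairpin in messenger RNAs, the iron-responsive element, when iron is scarce. Bound in the 5′ untranslated region of ferritin or ferroportin mRNA the proteins block translation, and bound in the 3′ untranslated region of TFRC mRNA they protect the transcript from decay. Pancreatic cancer cells are known for high demand for iron and for ferritin turnover through NCOA4.

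The hairpins are shown because the iron regulatory proteins are known to act through them. Transcript sequences of GENCODE 29 (GRCh38) were searched on the sense strand for an unpaired C, 5 paired bases, the loop CAGTGN and a lower stem, with at least 9 of 10 stem pairs (G-T allowed). Of 19684 protein-coding genes, 18 (0.0914%) held the motif in an untranslated region, which differ in length. Among these were 4 of the 10 members. Each printed site is 29 bases, 5′ to 3′ in the sense of the transcript, with the loop in capitals.
FTH1, 5′ untranslated region, chr11:61967574-61967602, minus strand: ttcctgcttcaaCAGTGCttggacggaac
FTL, 5′ untranslated region, chr19:48965335-48965363, plus strand: ctcttgcttcaaCAGTGTttggacggaac
SLC40A1, 5′ untranslated region, chr2:189580661-189580689, minus strand: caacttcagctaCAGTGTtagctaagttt
TFRC, 3′ untranslated region, chr3:196050979-196051007, minus strand: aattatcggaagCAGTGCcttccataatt
TFRC, 3′ untranslated region, chr3:196050575-196050603, minus strand: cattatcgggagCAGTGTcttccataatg
TFRC, 3′ untranslated region, chr3:196050510-196050538, minus strand: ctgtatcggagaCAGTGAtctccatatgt
TFRC, 3′ untranslated region, chr3:196050463-196050491, minus strand: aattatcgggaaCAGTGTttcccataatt
The 4 sites of TFRC and the site of SLC40A1 had all 10 stem pairs, and the sites of the ferritin chains had 9. The ferritin sites lie at the other end of the transcript from those of TFRC. In the search SLC11A2, ACO1, IREB2, HMOX1, NCOA4 and STEAP3 gave no match to these letters. The form searched is strict and can miss elements that depart from it. The absence of a match therefore does not show that a transcript lacks the element, and the sites listed for a gene may not be all it has. A match is a description of the sequence, not of protein binding in these cells.

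The depth was similar across libraries, with 14087260 to 15724750 reads each, recovered as whole numbers from the deposited values. Levels are FPKM, reads per kilobase of listed gene length scaled to library size. Inhibitor replicate 2 stood apart: across the 13578 genes tested its log2 values correlated with the other inhibitor libraries at r = 0.904 and 0.906, against 0.98 between those. Mitochondrially encoded genes took 11.3% of its reads (4.70% to 6.03% in the others), and nuclear coding genes listed under 1500 bases took 1.09% of its coding reads (2.27% to 2.61%). Markers fixed for ductal epithelium were partly absent, with KRT19 and PDX1 at 0 reads in all libraries (a count of 0 allows up to 0.0141 and 0.0132 FPKM, covering counting error only). EPCAM, CDH1 and CFTR were near 0 in DMSO, at 0.211, 0.118 and 0.00684 FPKM on average, and 0.316, 0.446 and 0.261 FPKM with the inhibitor. KRT8 and KRT18 averaged 264 and 255 FPKM in DMSO and 361 and 364 FPKM with the inhibitor, and KRT7 163 and 103 FPKM. MUC1, the remaining gene of the ductal set, was also expressed, at 21.85 FPKM on average in DMSO and 48.3 FPKM with the inhibitor. In DMSO CDKN2A, at 95.6 to 118 FPKM, and SMAD4, at 3.34 to 3.90 FPKM, were expressed, although they are genes that BxPC-3 is described as having lost. BxPC-3 is therefore used here as the libraries' label only. PRMT5 itself stood at 23.2 to 26.2 FPKM in DMSO and 12.1 to 13.4 FPKM with the inhibitor, which does not check an inhibitor of the enzyme. Markers of other cells that handle iron were low. The erythroid set (1 of 5 at 0) summed to 0.398 to 1.11 FPKM, the macrophage and leukocyte set (2 of 5 at 0, CD163 and LYZ) to 0.0396 to 0.559 and the hepatocyte set (2 of 5 at 0, ALB and APOB) to at most 0.150. The fibroblast set (3 of 5 at 0) summed to 4.23 to 4.49 FPKM in DMSO and 5.39 to 10.4 FPKM with the inhibitor, and the ductal set (2 of 9 at 0) to 672 to 751 and 788 to 1041 FPKM, a sum led by KRT8 and KRT18, and their part in the results was not tested. The labels do not say whether libraries came from separate cultures, so a p-value here measures only how far these samples spread, possibly for technical reasons. Fewer cells with a transcript and less transcript per cell cannot be told apart in such bulk libraries.

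In DMSO the members spanned almost the whole range of expression. FTH1 and FTL lay above 99.9% of the 13578 genes tested in mean FPKM, TFRC above 97.3%, NCOA4 above 94.6% and IREB2 above 52.4%. The order of mean levels in DMSO was FTH1, FTL, TFRC, NCOA4, STEAP3, HMOX1, ACO1, SLC11A2, IREB2 and SLC40A1. Only STEAP3 and HMOX1 overlapped as neighbours in that order. With the inhibitor FTL came before FTH1, TFRC came after NCOA4 and STEAP3, and the ranges of HMOX1, SLC11A2, ACO1 and IREB2 overlapped from neighbour to neighbour. Of the 10 members, 9 passed the filter (a level of at least 1 FPKM in 3 or more libraries), all of them in both groups.

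TFRC showed the largest difference of the members. Its level was 100.1, 100.7 and 92.6 FPKM in the DMSO libraries and 19.0, 15.3 and 18.9 FPKM in inhibitor replicates 1, 2 and 3. The 3 inhibitor libraries sat together far below the DMSO libraries, with no overlap. The means were 97.8 ± 4.51 and 17.7 ± 2.10 FPKM (SD, n = 3 each), 5.51-fold lower with the inhibitor, and the log2 fold change of FPKM + 1 was −2.40 (SE 0.13). The gene (ENSG00000072274, chromosome 3, 196027183 to 196082189, minus strand, hg38) held 1617 to 12344 reads per library, so counting error is small beside the difference. Without inhibitor replicate 2 the value was −2.31 (SE 0.06). With other scalings, filters and limma settings, and with each library left out, it ran from −2.25 to −2.48.

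The other uptake genes differed little or in the other direction. STEAP3, the endosomal ferrireductase (ENSG00000115107, chromosome 2, 119223831 to 119265652), read 15.5, 16.2 and 19.6 FPKM across the DMSO libraries and 21.1, 25.7 and 21.4 FPKM across the inhibitor libraries. The groups did not overlap, but DMSO replicate 3 lay close to the lowest inhibitor library. Its log2 fold change was 0.39 (SE 0.14). Up to 3.32% as many reads lay on the antisense gene STEAP3-AS1, and whether counting used strand is not stated. SLC11A2 (ENSG00000110911, chromosome 12, 50979401 to 51028566) read 9.43, 9.68 and 8.97 FPKM across the DMSO libraries and 11.3, 9.11 and 10.7 FPKM across the inhibitor libraries. These groups overlapped through inhibitor replicate 2, and the log2 fold change was 0.13 (SE 0.12).

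**Figure D1:**
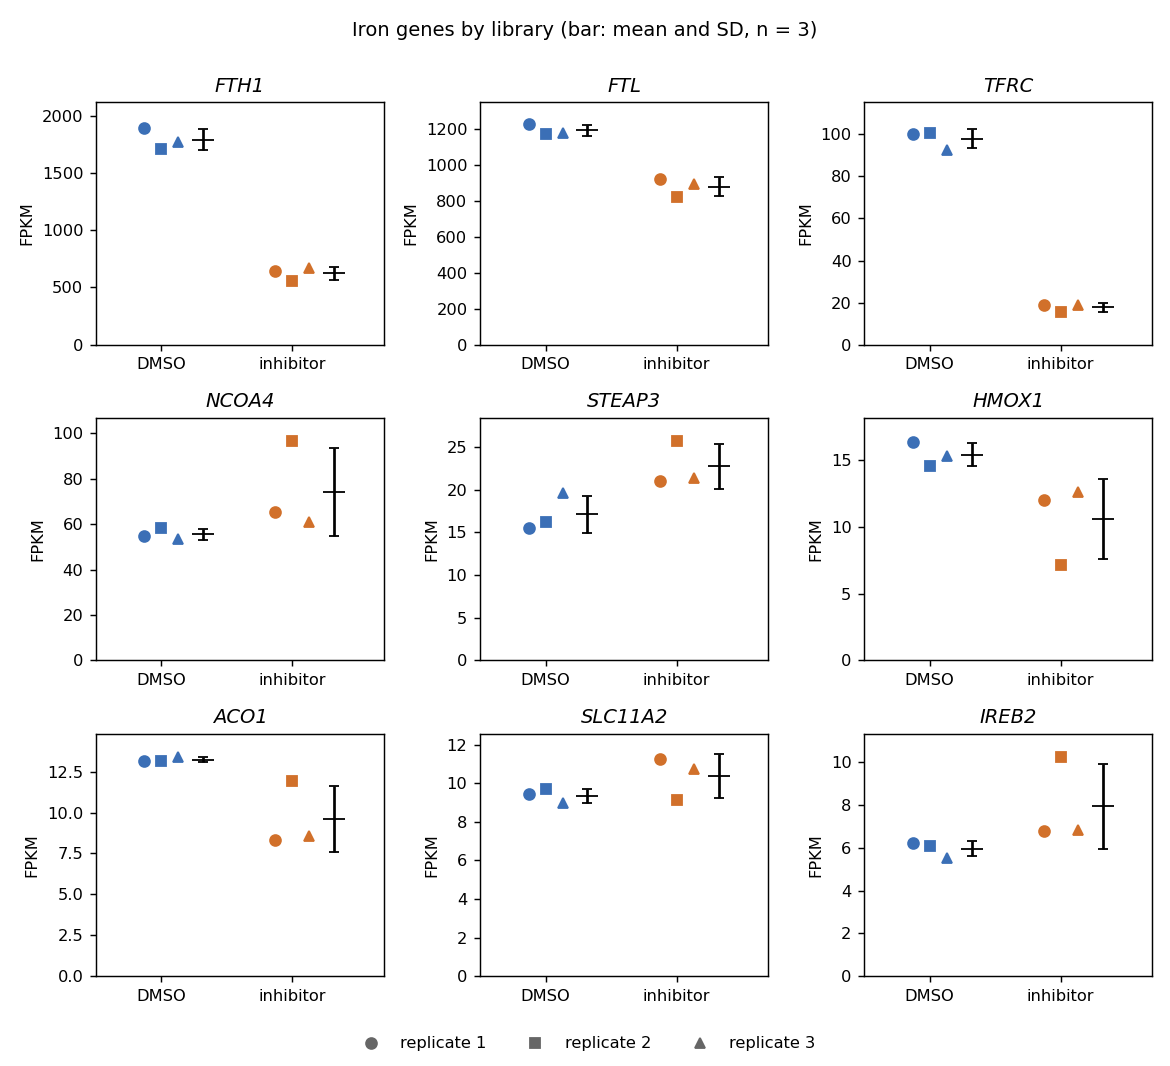
FPKM (vertical axes, linear from 0) of the 9 members with measurable levels in each DMSO and inhibitor library, with marker shapes for replicates and black bars for mean and SD (n = 3). TFRC and FTH1 separate by several-fold, SLC11A2 overlaps, and inhibitor replicate 2 (square) is the highest or lowest inhibitor library in all 9 panels.

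Transcripts of both ferritin chains had lower values with the inhibitor, that of the heavy chain by much more. FTH1 (ENSG00000167996, chromosome 11, 61959718 to 61967660, minus strand) read 1894, 1712 and 1767 FPKM across the DMSO libraries and 639.5, 559.7 and 670.8 FPKM across the inhibitor libraries. Every inhibitor library held well under the lowest DMSO library. The means were 1791 ± 93.4 and 623 ± 57.3 FPKM (SD, n = 3 each), 2.87-fold lower, with a log2 fold change of −1.52 (SE 0.15; −1.45 without inhibitor replicate 2). FTL (ENSG00000087086, chromosome 19, 48965301 to 48966878, plus strand) read 1230, 1175 and 1178 FPKM across the DMSO libraries and 925.9, 823.0 and 894.6 FPKM across the inhibitor libraries. The groups did not overlap, and the difference was a fraction of that of FTH1. The means were 1194 ± 31.0 and 881 ± 52.7 FPKM, 1.35-fold lower, with a log2 fold change of −0.44 (SE 0.14; −0.39 without inhibitor replicate 2).

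The ratio of the chains' transcripts within a library does not depend on how libraries are scaled to each other. FTH1 over FTL, as a ratio of FPKM, was 1.54, 1.46 and 1.5 in DMSO and 0.691, 0.680 and 0.750 with the inhibitor. The heavy-chain transcript was thus the more abundant per length in every DMSO library and the less abundant in every inhibitor library. Amounts of the protein chains were not measured. The mean ratio was 1.499 ± 0.0414 in DMSO and 0.707 ± 0.0376 with the inhibitor (SD, n = 3 each), a 2.12-fold difference. The listed length of FTH1 is 2030 bases and that of FTL 878 bases. Which transcript is higher depends on these lengths, and by reads alone FTH1 led in both groups (ratios of 3.47 ± 0.0958 and 1.63 ± 0.0869). The fold between the groups does not depend on the lengths. FTL over TFRC had a mean of 12.2 ± 0.529 in DMSO and 49.9 ± 3.36 with the inhibitor, and FTH1 over TFRC one of 18.3 ± 1.16 and 35.2 ± 1.48, TFRC being lower by more than either chain. Despite its distance from them elsewhere, inhibitor replicate 2 lay near the other inhibitor libraries in all 3 ratios.

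**Figure D2:**
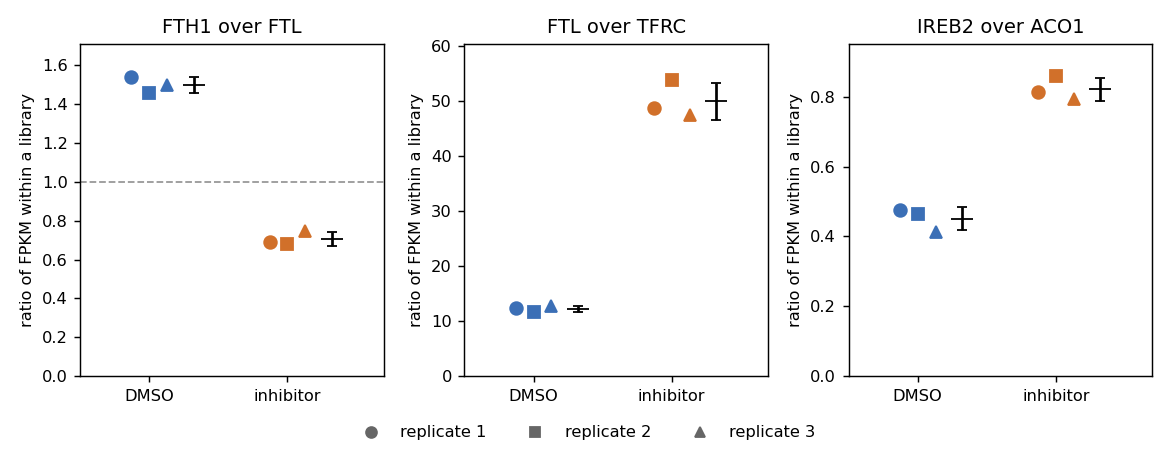
Ratios of FPKM (vertical axes, linear from 0) between pairs of iron genes within each library, by group, with black bars for mean and SD (n = 3). FTH1 over FTL lies above 1 (dashed line) in all 3 DMSO libraries and below it in all 3 inhibitor libraries, and FTL over TFRC and IREB2 over ACO1 are higher in all 3 inhibitor libraries.

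Ferritin genes have many processed pseudogenes, copies that can take or give reads. The table lists 25 rows named as FTH1 pseudogenes and 16 as FTL pseudogenes, of which 18 and 5 had any read. Together they held 1.23% to 2.07% as many reads as FTH1 and 0.0849% to 0.367% as many as FTL. Adding them left the log2 ratio of mean FTH1 at −1.52 and that of FTL at −0.44. Of 6 FTH1 pseudogenes that passed the filter, 5 were called lower (limma, adjusted p under 0.05, where 10.0% of all genes were), for example FTH1P2 (35.1 ± 7.86 to 11.1 ± 1.82 FPKM, SD, n = 3 each). The pseudogene rows of FTH1 summed to a log2 ratio of −1.52, like FTH1 itself. Those of FTL, with 13 to 47 reads per library, summed to 0.38, opposite in sign to FTL. Of these 2 passed the filter and neither was called, though FTLP12 was called higher without inhibitor replicate 2 (0.90). How reads were divided among near-identical copies is not stated, so the pseudogene values are uncertain and are no separate evidence. BEST1, which overlaps FTH1 on the opposite strand, held at most 0.230% as many reads.

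NCOA4, the receptor that carries ferritin to the lysosome (ENSG00000266412, chromosome 10, 46005088 to 46030714), was listed higher with the inhibitor. Its values were 54.8, 58.1 and 53.5 FPKM across the DMSO libraries and 65.5, 96.6 and 61.0 FPKM across the inhibitor libraries. The groups did not overlap, but most of the difference of the means came from inhibitor replicate 2. The log2 fold change was 0.39 (SE 0.19), and 0.19 (SE 0.07) without that library. In DMSO NCOA4 lay below TFRC in every library, and with the inhibitor it lay above TFRC in every library.

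The transcripts of the iron regulatory proteins differed in opposite directions. ACO1 (ENSG00000122729, chromosome 9, 32384603 to 32454769), an aconitase that becomes an RNA-binding protein when it lacks its iron-sulfur cluster, read 13.1, 13.1 and 13.4 FPKM across the DMSO libraries and 8.33, 11.9 and 8.57 FPKM across the inhibitor libraries. All 3 lay below DMSO, inhibitor replicate 2 closest to it, and the log2 fold change was −0.44 (SE 0.15) with it and −0.59 (SE 0.06) without it. IREB2 (ENSG00000136381, chromosome 15, 78437431 to 78501456), whose protein is degraded when iron is ample, read 6.24, 6.10 and 5.54 FPKM across the DMSO libraries and 6.77, 10.2 and 6.82 FPKM across the inhibitor libraries. The inhibitor libraries lay above DMSO, replicates 1 and 3 only slightly. The log2 fold change was 0.34 (SE 0.17), and 0.17 (SE 0.08) without inhibitor replicate 2. That library was thus higher than its replicates for both genes, and the inhibitor libraries lay closer together in the ratio of IREB2 to ACO1 than in either gene. The ratio was 0.475, 0.465 and 0.413 in DMSO and 0.813, 0.859 and 0.795 with the inhibitor, 1.82-fold higher by means with no overlap.

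HMOX1, the inducible heme oxygenase (ENSG00000100292, chromosome 22, 35380361 to 35394214), read 16.3, 14.6 and 15.3 FPKM across the DMSO libraries and 12, 7.15 and 12.6 FPKM across the inhibitor libraries. The inhibitor libraries all lay below DMSO, inhibitor replicate 2 farthest. The log2 fold change was −0.54 (SE 0.21), and −0.30 (SE 0.07) without that library. Ferroportin, SLC40A1 (ENSG00000138449, chromosome 2, 189560579 to 189583758), had 0 reads in the DMSO libraries and 1 read, in inhibitor replicate 2. A count of 0 over the 3 DMSO libraries allows up to 0.0154 FPKM, so no difference was detectable at this depth. The only known cellular iron exporter was thus near 0 in both groups, and so were other genes of export and its regulation. HAMP, the regulatory hormone hepcidin, had 0 reads, and the ferroxidases HEPH and HEPHL1 had 1 and 4 reads over all libraries. CP, the ferroxidase ceruloplasmin, averaged 0.123 FPKM in the DMSO libraries and 0.228 FPKM in the inhibitor libraries.

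**Figure D3:**
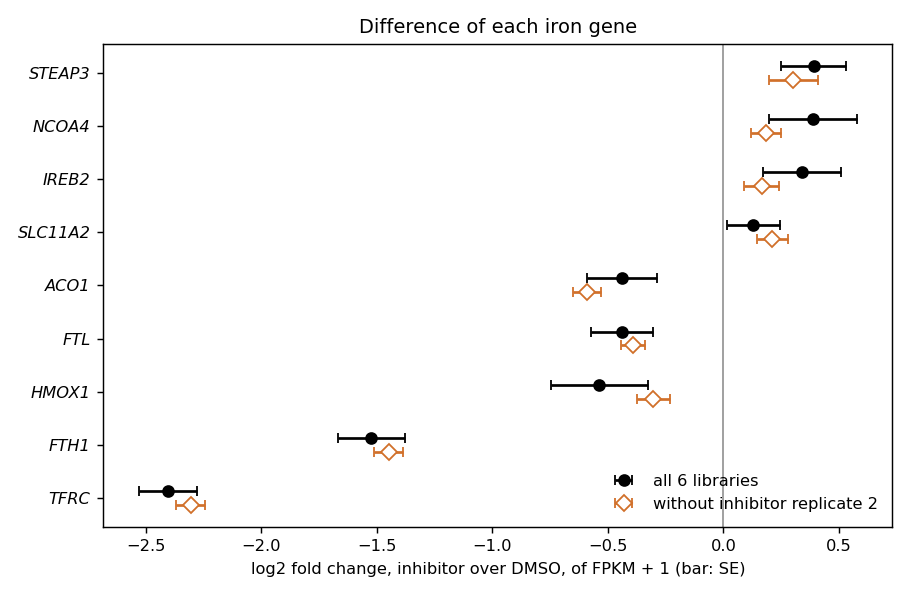
Log2 fold change of FPKM + 1, inhibitor over DMSO (horizontal axis), with its SE, for the 9 measurable members with all 6 libraries (filled circles) and without inhibitor replicate 2 (open diamonds). TFRC (−2.40) and FTH1 (−1.52) stand far below the other members, which lie between −0.54 and 0.39.

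Set against all genes, the members' counts read as follows. In the fit over 13578 genes (limma, Benjamini-Hochberg adjusted p under 0.05), 2 of 9 members were called lower, TFRC and FTH1, where 10.0% of all genes were. None were called higher, where 7.18% of all genes were. Of all genes, 975 were called higher and 1364 lower, a split that turned to 1231 and 937 when values were taken as TPM rescaled without mitochondrial and the 50 most abundant genes. Without inhibitor replicate 2, 5 members were called lower (TFRC, FTH1, FTL, ACO1 and HMOX1), where 23.1% of all genes were, and 0 higher, where 17.5% were. The groups did not overlap for 5 members lower with the inhibitor (26.7% of all genes) and for 3 higher (19.2% of all genes). The median log2 fold change was −0.44 over the 9 members and −0.06 over all genes. Since the contrast was known when the genes were chosen, nothing is read from these counts. Inhibitor replicate 2 lay beyond both other inhibitor libraries for 9 of 9 members, above them for 4 and below them for 5, as it did for 89.0% of all genes.

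The 3 transcripts whose pattern over the 6 libraries was most like that of TFRC were the inflammatory cytokine IL6, TNFAIP3, an inhibitor of NF-κB, and the protease inhibitor SERPINE2. Pearson's r of log2(FPKM + 1) with TFRC was 0.9996, 0.9994 and 0.9994 over 6 libraries. With only 2 groups such a value mainly restates that a transcript has a large difference and little spread within each group. IL6 and SERPINE2 passed the filter through the DMSO libraries alone, with at most 0.741 and 0.837 FPKM in the inhibitor libraries. IL6 had as few as 7 reads in a library.

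Beyond the members, 83 genes in 8 lists of iron and heme biology were examined, of which 65 passed the filter. The called genes came from 5 of the 8 lists, those of uptake, sensing, heme synthesis, heme transport and mitochondria. In all, 5 rose and 6 fell (limma, adjusted p under 0.05), close to the 7.18% and 10.0% of all genes, and the median log2 fold change was −0.17. Without inhibitor replicate 2, 10 rose and 15 fell, near the 17.5% and 23.1% of all genes in that fit, and the median was −0.05, as over all genes. The calls depended on the libraries, as did those over all genes (975 higher and 1364 lower with all libraries). Without a DMSO library, 214 to 262 of all genes were called higher and 264 to 317 lower. Without inhibitor replicate 1 these counts were 440 and 651, and without inhibitor replicate 3 they were 505 and 794. Without DMSO replicates 1, 2 or 3, at most STEAP4 was called beside LTF. LTF stayed called whichever library was left out, but it passed the filter through the DMSO libraries alone, so its call supports nothing. Without inhibitor replicate 1 the 5 rises were lost, without inhibitor replicate 3 only FDXR was kept among them, and SLC48A1 was lost in both.

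Of 8 measured uptake genes, 2 fell and 1 rose, where 10.0% and 7.18% of all genes did. STEAP4, a metalloreductase related to STEAP3, went from 5.29, 5.41 and 4.96 FPKM in DMSO to 1.62, 2.57 and 1.71 FPKM (log2 fold change −1.08, SE 0.15, limma adjusted p = 0.00771). It thus fell where the value of STEAP3 was above DMSO. LTF, the iron-binding secreted protein lactoferrin, read 2.03, 1.82 and 2.24 FPKM across the DMSO libraries and 0.101, 0.0880 and 0.0722 FPKM across the inhibitor libraries (adjusted p = 0.00267). It passed the filter through the DMSO libraries alone and had as few as 5 reads in a library, so its fold is uncertain and its call supports nothing. HFE, a partner of the transferrin receptor, rose from 2.002 ± 0.240 to 3.21 ± 0.208 FPKM (log2 fold change 0.49, adjusted p = 0.0368). TFR2, the second transferrin receptor, and the zinc and iron importer SLC39A14 were not called with all libraries, and SLC39A14 was called lower without inhibitor replicate 2 (−0.29, adjusted p = 0.00822).

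With all libraries no call was made among 4 measured storage and chaperone genes or 9 genes of cytosolic iron-sulfur cluster assembly. In that fit 7.18% of all genes were called higher and 10.0% lower. Without inhibitor replicate 2, 1 of the former was called higher and 2 of the latter lower, where 17.5% and 23.1% of all genes were. HERC2, a ligase known to mark NCOA4 for degradation, went from 3.76 ± 0.386 to 7.69 ± 2.74 FPKM with no overlap (0.83, limma adjusted p = 0.0508), and 0.59 (adjusted p = 0.00902) without that library. GLRX3, a cytosolic glutaredoxin that carries iron-sulfur clusters, had −0.37 (adjusted p = 0.0955), and −0.41 (adjusted p = 0.0298) without that library. The iron chaperones PCBP1 and PCBP2 had log2 fold changes of −0.36 (SE 0.28) and 0.02 (SE 0.13). Without inhibitor replicate 2 these were −0.0589 and −0.0852. Of the cytosolic assembly factors, CIAO1 had −0.30 (SE 0.17) and CIAO2B −1.16 (SE 0.49). CIAO2B stood at 14.0 FPKM in inhibitor replicate 2 and at 50.3 and 50.9 FPKM in the other inhibitor libraries, and was called lower without that library (−0.56, adjusted p = 0.0268).

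Of 9 measured genes of iron sensing, 1 fell and 0 rose, where 10.0% and 7.18% of all genes did. EPAS1, the oxygen-regulated transcription factor HIF-2α, whose mRNA is known to carry an iron-responsive element outside the strict form searched here, went from 79.2 ± 3.28 to 44.1 ± 7.08 FPKM, with SDs over 3 libraries (a log2 difference of −0.84, SE 0.14, limma adjusted p = 0.0138). FBXL5, the ligase subunit that marks IREB2 protein for degradation when iron is present, was not called with all libraries. Without inhibitor replicate 2 FBXL5 was called higher (0.27, limma adjusted p = 0.0497). In that fit 2 of the 9 sensing genes were called higher and 3 lower, where 17.5% and 23.1% of all genes were. Of the 14 other genes with the strict hairpin, 7 were measured, with 1 called lower (TMEM132A, −1.23; 10.0% of all genes were) and 0 higher (7.18% of all genes). Their median log2 fold change was 0.33, against −0.06 over all genes. Without inhibitor replicate 2, CEP57 (0.51) and SAPCD2 (0.78) were called higher and 1 gene lower, where 17.5% and 23.1% of all genes were. The groups did not overlap for 4 of the 7 with higher values (19.2% of all genes) and for 1 with lower values (26.7%). With so few genes, nothing is read from these counts.

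In heme biology, 1 of 8 measured synthesis genes fell and 0 rose, and of 8 genes of heme transport and breakdown 1 fell and 1 rose. Of all genes, 10.0% fell and 7.18% rose by the same threshold. Without inhibitor replicate 2, 1 synthesis gene fell and 2 rose, and 3 genes of transport and breakdown fell and 1 rose. In that fit 23.1% of all genes fell and 17.5% rose. ALAS1, the rate-limiting enzyme of heme synthesis outside red cells, went from 70.7, 72.6 and 81.4 FPKM in DMSO to 44.4, 41.1 and 44.7 FPKM (log2 fold change −0.77, SE 0.11, limma adjusted p = 0.00929). The heme transporter of the endolysosome, SLC48A1, fell by 0.55 on the log2 scale (9.45 ± 0.649 to 6.13 ± 0.216 FPKM, adjusted p = 0.0186). FLVCR2, a heme and choline transporter, rose from 1.44 ± 0.261 to 2.46 ± 0.101 FPKM (adjusted p = 0.0411). Neither HMOX1 nor HMOX2, the constitutive form, was called with all libraries.

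Among 19 measured mitochondrial iron and iron-sulfur cluster genes there were 3 rises and 1 fall, where 7.18% and 10.0% of all genes rose and fell. SLC25A37 (mitoferrin-1), an importer of iron into mitochondria, went from 27.6, 27.6 and 29.1 FPKM in DMSO to 17.5, 14.5 and 16.96 FPKM (log2 fold change −0.75, SE 0.11, limma adjusted p = 0.0103). Its relative SLC25A28 was not called with all libraries and was called lower without inhibitor replicate 2 (−0.67). FDXR, which passes electrons to the ferredoxins, rose from 5.51 ± 0.330 to 10.9 ± 2.19 FPKM (0.85, adjusted p = 0.0182). HSCB, the co-chaperone of cluster transfer, rose by 0.75 (adjusted p = 0.0245).

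**Figure D4:**
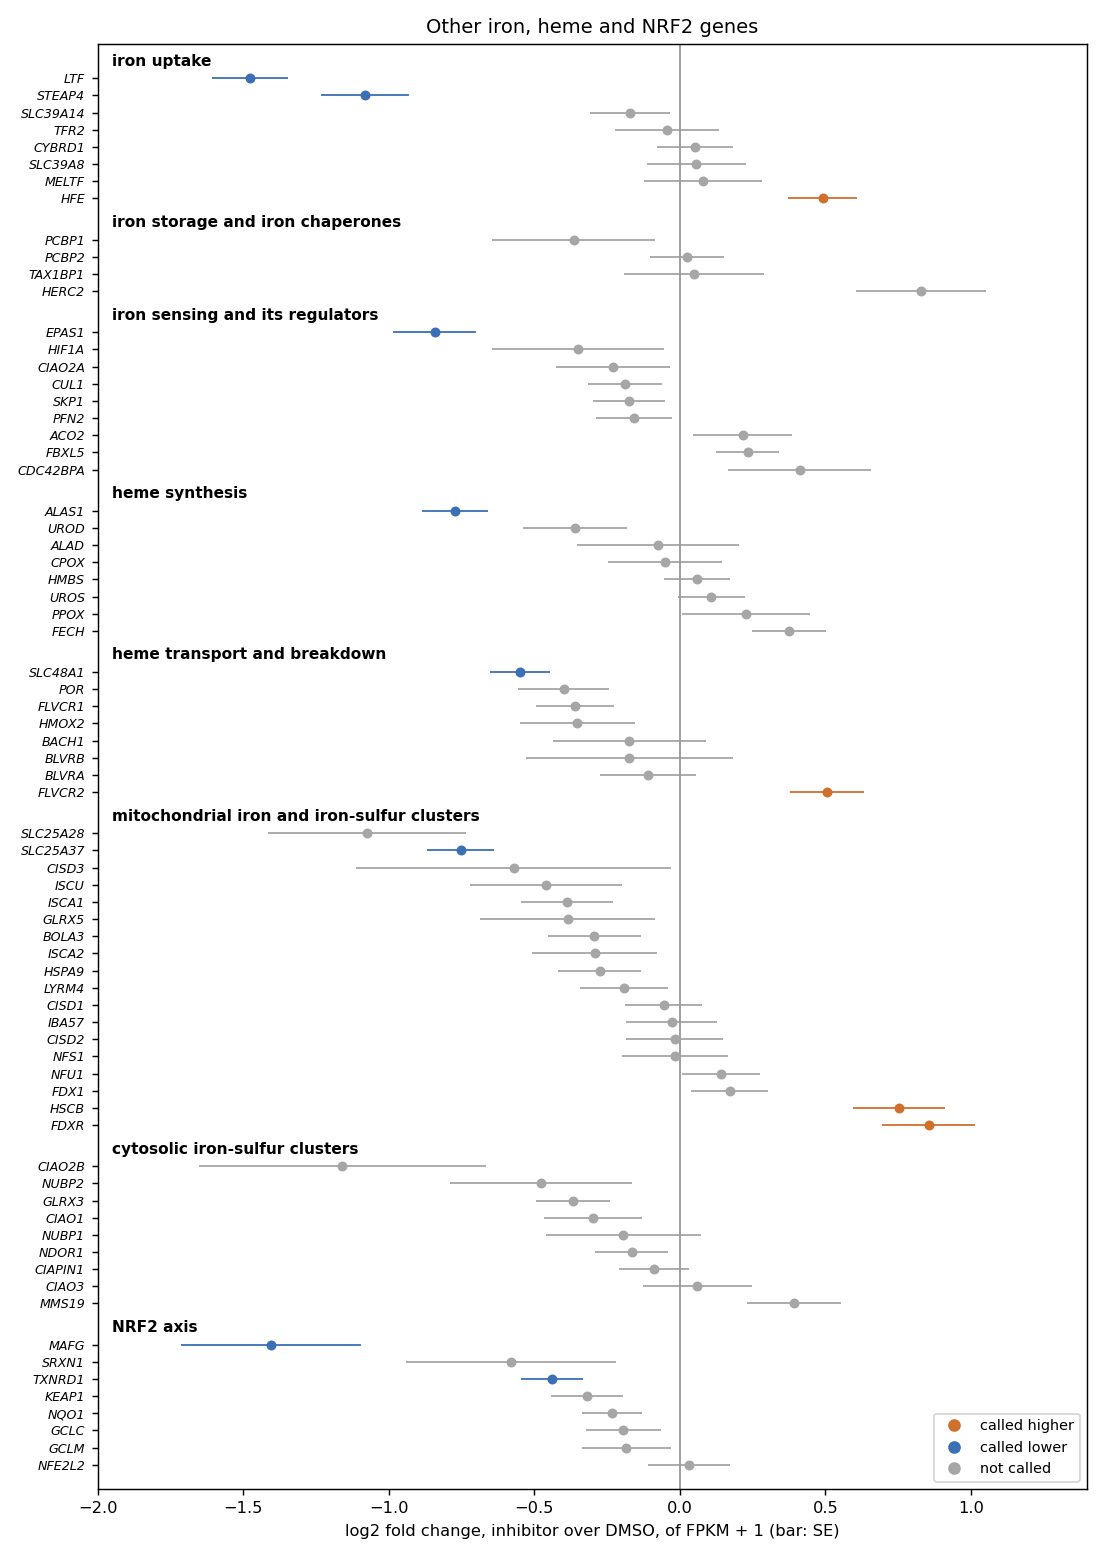
Log2 fold change of FPKM + 1, inhibitor over DMSO (horizontal axis), with its SE, for measured genes of the other iron and heme lists and the NRF2 axis, coloured by call. Calls in both directions are scattered over the lists, and most genes were not called.

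The NRF2 transcription factor is known to drive HMOX1, FTH1 and FTL. Of 8 measured genes of its axis, 2 fell and 0 rose, where 10.0% and 7.18% of all genes did, and 3 fell and 0 rose without inhibitor replicate 2, where 23.1% and 17.5% did. MAFG, a small partner of NRF2, went from 40.9 ± 1.98 to 15.8 ± 6.39 FPKM (a log2 difference of −1.40, SE 0.31, limma adjusted p = 0.0282), and −1.03 without inhibitor replicate 2. The thioredoxin reductase TXNRD1, an NRF2 target, fell by 0.44 from 138 ± 3.16 to 101 ± 3.68 FPKM (adjusted p = 0.0369). NFE2L2, which encodes NRF2, was not called. With libraries left out in turn the adjusted p reached 0.109 for MAFG and 0.172 for TXNRD1.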

How the data were processed

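RNA was measured in 6 libraries, 3 per group, grouped and numbered by title. Per the labels' protocols a directional kit was used on total RNA, and per the submitters' processing notes the build was hg38. Aligner, counter and annotation: not given in the sources used here. FPKM and a gene length were what the authors deposited. Multiplied by length and divided by 1 constant per library, 100% of values above 0 came within 0.01 of a whole read. Between libraries of a group the chi-square of reads per degree of freedom was 2.475 to 98.73, above sampling noise, so each counted as 1 replicate. Starts and ends of all 58735 genes equal those in GENCODE 29. The 13578 genes reaching 1 FPKM in 3 or more libraries were tested as log2(FPKM + 1) with limma 3.58.1 in R 4.3.3 (mean-variance trend, two-sided, no block), adjusted by Benjamini-Hochberg over all of them. A fold change on this scale understates that of low genes. No list was tested as a set. The test was tried on simulated data in which no library stood apart, so the trial does not cover a library like inhibitor replicate 2. Python 3.11.15, pandas 2.3.3 and matplotlib 3.10.9 did the rest.

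The members and lists were chosen with earlier results of these data known. Named genes are the members and, from each other list, up to 4 called genes with the smallest adjusted p or else the 2 highest in mean FPKM (1 such gene is not reported here); for TFRC, as the member with the largest difference, the 3 genes most correlated with it. STEAP3-AS1, BEST1, FTH1P2, FTLP12, HERC2, GLRX3, CEP57, SAPCD2, TFR2, SLC39A14, the export genes, FBXL5, TMEM132A, SLC25A28, HMOX2 and NFE2L2 were named after their values were seen, as were the hairpin search and the ratios. Alternatives were other pseudocounts, filters, scalings and limma settings, a replicate block, limma-voom on recovered reads, a length trend (loess, span 0.3) removed, and each library left out; the last 2 combined were added after seeing the data.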

Additional observations from a re-analysis of the deposited data

How the results depend on the processing

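In every fit run, each of the 9 measured members kept its direction, and TFRC (−2.25 to −2.48 over these fits) was called lower. So was FTH1 (−1.35 to −1.69), except without a filter, leaving 1 member lower, beside 861 genes of all lower and 2 other iron and heme genes higher. With each library left out in turn the ranges were 214 to 2372 higher and 264 to 3141 lower for all genes, 2 to 5 lower for the members, and 0 to 10 higher and 1 to 15 lower for the other iron and heme genes; the upper ends are without inhibitor replicate 2. With that library left out and the length trend removed, the counts were 2612 higher and 2916 lower for all genes, 3 higher (SLC11A2, NCOA4 and STEAP3) and 5 lower for the members, and 13 higher and 15 lower for the other genes. A filter at 5 FPKM gave 446 genes higher in all and 3 other iron and heme genes higher, with fewer genes tested. FTL was also called lower without a trend, with quantile scaling and with limma-voom, and ACO1 with the length trend removed; the cause was not tested. Whether the replicate numbers pair the libraries is not known. The correlation of deviations from the group means (−0.0179, 0.157 and 0.248) cannot decide it, because inhibitor replicate 2 weighs on the inhibitor mean in all 3. With the replicate block 606 genes were higher and 872 lower, and 1 other iron and heme gene was higher, while TFRC and FTH1 were still called. PCBP2 was −0.0101 with TPM, −0.0852 to 0.0799 with a library left out (lowest without inhibitor replicate 2) and −0.0546 with the trend also removed. The median of all genes, −0.06 as reported, was −0.10 with TPM and 0.06 with TPM rescaled without mitochondrial and the 50 most abundant genes. Depth limits SLC40A1, LTF and the pseudogenes, which had few reads.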
